A study of Mus musculus with 52 samples.

Results

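The 6 genes described here, En1, En2, Irx1, Foxa2, Lhx2 and Emx2, encode homeobox or forkhead transcription factors of particular brain regions. They were taken by gene name from the 4 deposited expression tables, as a gauge of the part of the brain that each culture or tissue piece came from. All 6 are listed in every table, among 53700 genes in the astrocyte table, 55487 in each of 2 brain tables and 34042 in the third. The members were chosen by their TPM in these same libraries, so their levels below are a description and carry no test. The tests reported are on other regional genes, in lists drawn up with earlier results of these data known. Their results are therefore not independent support.

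The libraries were made from C57BL/6 mice, in a study of lipid-laden astrocytes in epilepsy. Cultured primary astrocytes, the glial cells that support neurons, made 27 libraries in 9 groups of 3. Astrocytes lacking Apoe, the gene of the lipid carrier apolipoprotein E, had been given neuron-conditioned medium, oleic acid or palmitic acid, or were untreated. Wild-type astrocytes had been given conditioned medium of Apoe knockout neurons, conditioned medium of neurons, oleic acid or palmitic acid, or were untreated. The other 25 libraries came from brain: a KA-induced epilepsy model, first cohort (3 KA and 3 untreated), a model induced by CNO (3 CNO and 3 untreated), and another cohort with KA (3 Apoe knockout with KA, 3 A2aR knockdown with KA, 4 KA and 3 untreated). The labels give no brain region, dissection, dose, time, age or culture preparation, and no driver or vector for the knockdown or for the CNO model. Titles of the 3 neuronal medium groups also carry KA, and those of library 3 of the untreated and of the palmitic acid knockout cells carry the word mix, neither of which the labels explain. No label ties a library to an animal or a culture of its own, and the p-values below rest on library-to-library spread that may be technical only. Values are TPM, a transcript level scaled by length and by library total, unless stated.

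The neural tube is divided early into territories, each with its own set of transcription factors, and astrocytes keep part of that set after they leave the brain for the dish. En1 and En2, the engrailed homeobox genes, mark the midbrain and anterior hindbrain around the isthmus, Foxa2 marks the floor plate and ventral midbrain, and Irx1 belongs to the Iroquois genes of diencephalon, midbrain and hindbrain. Lhx2, a LIM homeobox gene, and Emx2 pattern the dorsal forebrain that gives rise to cortex and hippocampus.

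In the GENCODE M21 annotation of mm10, En1 lies on chromosome 1 from 120602418 to 120607992, En2 on chromosome 5 from 28165694 to 28172166, and Irx1 on chromosome 13 from 71957921 to 71963723. Foxa2 lies on chromosome 2 from 148042877 to 148046969, Lhx2 on chromosome 2 from 38339281 to 38369733, and Emx2 on chromosome 19 from 59458372 to 59465357. Irx1 and Foxa2 are on the minus strand and the others on the plus strand. Emx2 overlaps the antisense gene Emx2os by 264 bases, and since the counting is not stated to use strand, reads from this stretch cannot be told apart.

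Promoter windows are shown for the members at the opposite ends of the pattern, because En1 and Foxa2 were high where Lhx2 and Emx2 were low. The windows run from 250 bases before to 50 bases after the start and come from RefSeq on GRCm38.p6, for the 4 members that matched by symbol. En1 is chr1:120602237-120602536 on the plus strand, Foxa2 chr2:148046920-148047219 on the minus strand, Lhx2 chr2:38339031-38339330 on the plus strand, and Emx2 chr19:59458440-59458739 on the plus strand. Capitals mark CpG dinucleotides.
En1: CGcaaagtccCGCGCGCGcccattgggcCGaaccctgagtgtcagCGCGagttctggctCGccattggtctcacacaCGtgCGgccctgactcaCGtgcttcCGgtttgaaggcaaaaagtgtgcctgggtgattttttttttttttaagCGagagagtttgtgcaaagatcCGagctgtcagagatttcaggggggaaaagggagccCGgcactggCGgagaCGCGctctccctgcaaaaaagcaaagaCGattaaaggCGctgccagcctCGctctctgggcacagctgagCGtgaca
Foxa2: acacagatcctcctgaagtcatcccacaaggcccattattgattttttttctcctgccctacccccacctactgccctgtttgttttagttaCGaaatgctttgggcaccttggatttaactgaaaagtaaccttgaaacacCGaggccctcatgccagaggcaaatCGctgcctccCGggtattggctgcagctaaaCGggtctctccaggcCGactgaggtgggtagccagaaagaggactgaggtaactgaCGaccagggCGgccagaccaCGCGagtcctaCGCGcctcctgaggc
Lhx2: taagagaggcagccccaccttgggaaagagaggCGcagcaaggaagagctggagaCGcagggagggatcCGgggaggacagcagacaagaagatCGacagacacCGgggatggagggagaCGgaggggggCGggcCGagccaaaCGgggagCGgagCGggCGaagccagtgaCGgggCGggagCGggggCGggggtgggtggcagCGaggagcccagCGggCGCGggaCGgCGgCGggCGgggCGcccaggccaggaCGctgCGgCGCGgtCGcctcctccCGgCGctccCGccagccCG
Emx2: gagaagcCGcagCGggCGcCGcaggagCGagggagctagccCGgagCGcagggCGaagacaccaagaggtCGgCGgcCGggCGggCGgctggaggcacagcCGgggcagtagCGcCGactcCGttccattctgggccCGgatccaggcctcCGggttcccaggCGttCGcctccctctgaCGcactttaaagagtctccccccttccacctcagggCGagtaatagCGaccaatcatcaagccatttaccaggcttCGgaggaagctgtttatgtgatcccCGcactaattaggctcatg
These windows held 23 CpGs in En1, 12 in Foxa2, 34 in Lhx2 and 26 in Emx2, against a median of 7 over 32851 promoters. The homeobox core TAATTA, which is its own reverse complement, was found once in Emx2 and in none of the other 3 windows, and 5.29% of all promoters hold it. The forkhead core TGTTTAC, searched on both strands, was in none of the 4 windows, and 3.65% of all promoters hold it. All 4 windows were above the median in CpGs, at both ends of the pattern.

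The knocked-out gene was read first as a check of the labels. Apoe stood at 5.36 to 118 TPM in the 12 knockout astrocyte libraries, against 2221 to 5024 TPM in the 15 wild-type ones, and at 29.7 to 58.6 TPM in brain of Apoe knockout with KA, against 830 to 1467 TPM with KA alone. Astrocyte identity was less even. The summed level of 9 astrocyte markers, with no marker at 0 in the palmitic acid knockout libraries, was 1170 to 1267 TPM in knockout cells in neuronal medium, 491 to 507 with oleic acid, 69.4 to 86.7 with palmitic acid and 482 to 496 untreated, against 656 to 2753 in the wild-type libraries. Gfap, the intermediate filament that marks astrocytes, was at 2.08, 2.44 and 2.56 TPM in knockout cells with palmitic acid, against 1080, 1206 and 1223 TPM in untreated wild-type cells. Those 3 knockout libraries thus go against their astrocyte label on its defining marker, and the F test over treatments, the shared fit and the gene correlations are given with and without them, while each palmitic acid comparison in knockout cells rests on them alone.

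Levels of the regional members split the astrocyte cultures by genotype. The labels name no culture, litter or dissection. Genotype and the preparation of the cultures therefore cannot be told apart in any comparison of knockout with wild-type cells. Within a treatment, En1, En2 and Foxa2, of midbrain, isthmus and floor plate, were higher in every Apoe knockout library than in every wild-type one. So was Irx1, and the forebrain genes Lhx2 and Emx2 were lower. This held in all 4 treatments that both genotypes received, so that all 6 members had groups that did not overlap. The same was true of 61.6% of all 16161 tested genes in untreated cells, of 41.5% in neuronal medium, 43.2% with oleic acid and 67.2% with palmitic acid. Genotype was not the only divide, since wild-type cells given a fatty acid held midbrain factors that untreated wild-type cells nearly lacked.

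**Figure D1:**
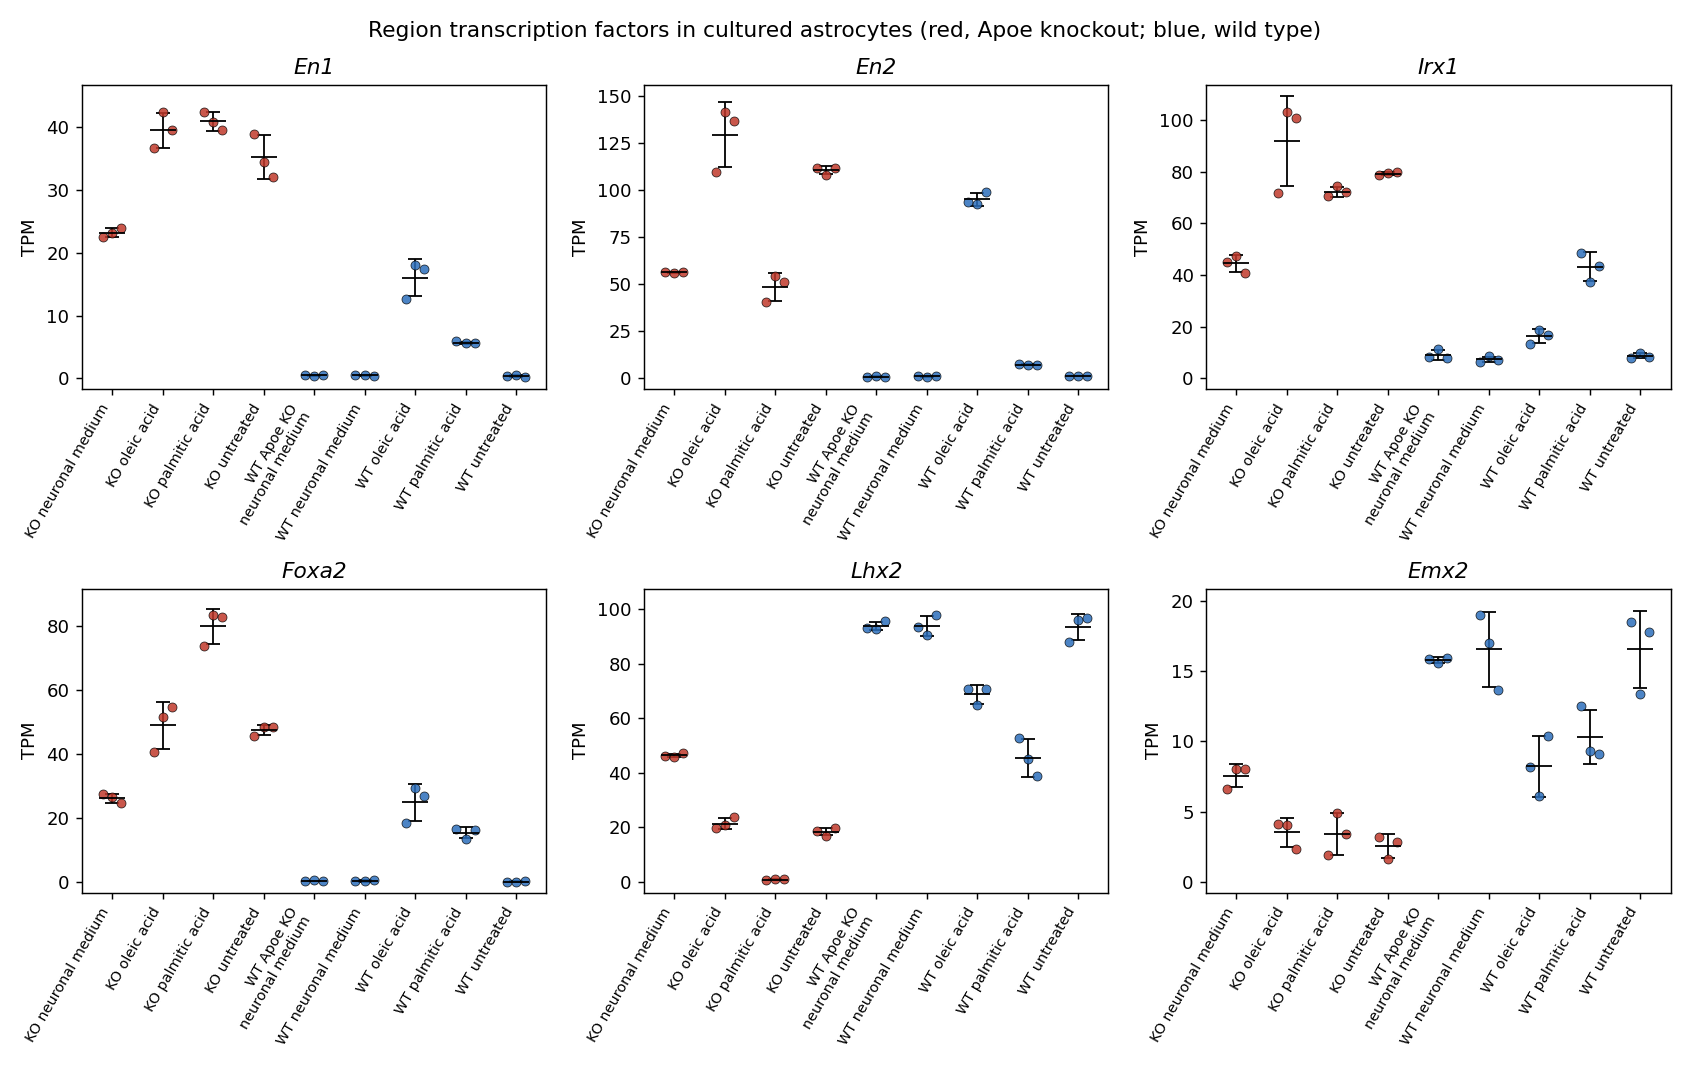
Level of each member in TPM (linear axis from 0) in 27 astrocyte libraries, with 3 points a group and the mean and SD as a bar. En1, En2, Irx1 and Foxa2 are high in the 4 red knockout groups and Lhx2 and Emx2 are low there, while wild-type oleic acid and palmitic acid groups lie away from the other 3 wild-type groups.

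En1, which keeps the midbrain and isthmus territory in place, stood at 39.0, 34.5 and 32.1 TPM in untreated knockout libraries, against 0.39, 0.50 and 0.15 TPM in untreated wild-type libraries. With oleic acid it was 36.8, 42.4 and 39.5 TPM in knockout cells, against 12.6, 17.98 and 17.5 TPM in wild-type cells, and with palmitic acid 42.5, 40.8 and 39.5 TPM, against 5.86, 5.56 and 5.61 TPM. In neuronal medium it was 22.5, 23.2 and 23.9 TPM in knockout cells, against 0.50, 0.57 and 0.39 TPM in wild-type cells. Knockout cells were high throughout and lowest in neuronal medium, while wild-type cells had appreciable En1 with either fatty acid only. The log2(TPM + 1) difference between knockout and wild type was 4.75 untreated, 4.03 in neuronal medium, 1.26 with oleic acid and 2.65 with palmitic acid. This scale understates the change of genes with low values, and the depth of the TPM libraries is unknown.

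En2, the engrailed paralogue, had the highest levels of the group, with 112, 108 and 112 TPM in untreated knockout libraries, against 1.05, 1.01 and 1.02 TPM in untreated wild-type libraries. With oleic acid it was 109.6, 142 and 137 TPM in knockout cells, against 93.7, 92.6 and 99.1 TPM in wild-type cells, so the genotypes came within a log2 difference of 0.43. With palmitic acid it was 40.3, 54.2 and 51.2 TPM in knockout cells, against 7.52, 6.90 and 6.99 TPM in wild-type cells. Oleic acid and palmitic acid therefore sat far apart for En2 in both genotypes, with no overlap. In neuronal medium En2 was 56.7, 56.1 and 56.3 TPM in knockout cells, against 1.19, 0.87 and 0.95 TPM in wild-type cells, a log2 difference of 4.84, beside 5.78 in untreated cells and 2.60 with palmitic acid.

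Foxa2, the winged-helix factor of the floor plate and of midbrain dopamine progenitors, was at 45.7, 48.4 and 48.6 TPM in untreated knockout libraries, against 0.12, 0.08 and 0.25 TPM in untreated wild-type libraries. With palmitic acid it was 73.7, 83.3 and 82.7 TPM in knockout cells, against 16.7, 13.4 and 16.1 TPM in wild-type cells. With oleic acid it was 40.7, 51.6 and 54.6 TPM in knockout cells, against 18.5, 29.5 and 26.9 TPM in wild-type cells. The highest Foxa2 was thus in knockout cells given palmitic acid, the libraries with the least Gfap. In neuronal medium Foxa2 was 27.4, 26.6 and 24.6 TPM in knockout cells, against 0.25, 0.22 and 0.75 TPM in wild-type cells.

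Irx1, the Iroquois member, was never near 0 in culture. It was 78.6, 79.4 and 80.0 TPM in untreated knockout libraries, against 7.93, 9.74 and 8.23 TPM in untreated wild-type libraries, a log2 difference of 3.06. With palmitic acid it was 70.6, 74.3 and 72.0 TPM in knockout cells, against 48.5, 37.4 and 43.5 TPM in wild-type cells, a log2 difference of 0.74. Irx1 and the engrailed genes thus differed in which wild-type group was high: palmitic acid for Irx1 and oleic acid for En1 and En2. With oleic acid Irx1 was 71.8, 103 and 100.69 TPM in knockout cells, against 13.4, 18.8 and 16.9 TPM in wild-type cells, and in neuronal medium it was 45.1, 47.5 and 40.9 TPM, against 6.35, 8.43 and 7.22 TPM.

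Lhx2, needed for the cortical and hippocampal primordium, ran the other way. It was 18.6, 17.0 and 19.7 TPM in untreated knockout libraries, against 87.9, 95.9 and 96.6 TPM in untreated wild-type libraries. In neuronal medium it was 46.3, 46.0 and 47.1 TPM in knockout cells, against 93.4, 90.6 and 97.7 TPM in wild-type cells. With oleic acid it was 19.7, 20.9 and 23.7 TPM in knockout cells, against 70.8, 64.8 and 70.7 TPM in wild-type cells. Lhx2 was nearly gone with palmitic acid, at 0.65, 0.95 and 0.94 TPM in knockout cells, against 52.7, 45.1 and 38.7 TPM in wild-type cells, which made the largest difference among the 4 treatments (-4.65 on the log2 scale, beside -2.28 untreated, -1.64 with oleic acid and -0.999 in neuronal medium).

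Emx2, a homeobox gene of cortex and hippocampus, was the less abundant of the forebrain pair in wild-type cells. It was 3.22, 1.62 and 2.81 TPM in untreated knockout libraries, against 18.5, 13.4 and 17.8 TPM in untreated wild-type libraries. In neuronal medium it was 6.62, 8 and 8.04 TPM in knockout cells, against 19.0, 17.0 and 13.7 TPM in wild-type cells. With oleic acid it was 4.16, 4.08 and 2.36 TPM in knockout cells, against 8.16, 6.09 and 10.4 TPM in wild-type cells. With palmitic acid Emx2 was 1.91, 4.90 and 3.42 TPM in knockout cells, against 12.5, 9.31 and 9.07 TPM in wild-type cells. The knockout and wild-type libraries did not overlap within a treatment, but knockout cells in neuronal medium overlapped wild-type cells with oleic acid.

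Ranked over the 9 astrocyte groups, the 3 lowest groups for En1, En2, Foxa2 and Irx1 and the 3 highest for Lhx2 and Emx2 were the same: untreated wild-type cells and wild-type cells in either conditioned medium. These 9 libraries ran from 0.15 to 0.57 TPM (median 0.49) for En1, 0.61 to 1.29 (1.01) for En2, 0.08 to 0.75 (0.25) for Foxa2 and 6.35 to 11.2 (8.23) for Irx1. They ran from 87.9 to 97.7 TPM (median 93.4) for Lhx2 and 13.4 to 19.0 (15.9) for Emx2. No member separated wild-type cells in neuronal medium from untreated ones, where 14.9% of tested genes did. In medium of Apoe knockout neurons Foxa2 was the 1 member apart from untreated, at 0.29, 0.48 and 0.26 TPM against 0.12, 0.08 and 0.25 TPM, where 20.4% of tested genes were apart. All other neighbouring pairs within this low set overlapped.

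Wild-type cells given a fatty acid were set against the untreated ones. All 6 members separated wild-type oleic acid from wild-type untreated libraries, and all 6 separated wild-type palmitic acid from untreated ones. In each, En1, En2, Foxa2 and Irx1 were higher and the forebrain members Lhx2 and Emx2 lower. Of all tested genes, 65.1% and 69% were apart in the same 2 comparisons. The differences on the log2(TPM + 1) scale were 3.65 for En1, 5.57 for En2, 4.47 for Foxa2 and 0.84 for Irx1 with oleic acid, beside -0.44 for Lhx2 and -0.94 for Emx2. With palmitic acid they were 2.32 for En1, 2.005 for En2, 3.83 for Foxa2 and 2.19 for Irx1, beside -1.03 for Lhx2 and -0.64 for Emx2. These comparisons share the untreated wild-type libraries.

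Other measures moved with these groups. The 9 astrocyte markers summed to 1085 to 1118 TPM in wild-type cells with oleic acid and 656 to 804 with palmitic acid, against 2130 to 2390 in untreated wild-type cells. Markers of meningeal fibroblasts summed to 199 to 214 TPM with oleic acid and 214 to 239 with palmitic acid, against 579 to 626 untreated, and microglia markers to 224 to 255 and 221 to 258 TPM, against 117 to 136. The sex-linked transcripts, looked at after values were seen, differed too: Ddx3y, from the Y chromosome, was 1.27, 0.52 and 1.35 TPM with oleic acid and 3.62, 4.49 and 3.22 with palmitic acid, against 19.1, 14.9 and 18.8 TPM untreated. Xist, from the inactive X chromosome, was 6.57 to 15.0 TPM with oleic acid and 15.5 to 21.0 with palmitic acid, against 30.7 to 36.8 TPM untreated. The labels name no culture, litter or dissection, so the treatment and the preparation of these cultures cannot be told apart, and neither can the proportion of cells of a type and the RNA of each gene per cell.

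Among knockout cells, those in neuronal medium had member levels nearer to those of untreated wild-type cells. En1, En2, Foxa2 and Irx1 were lower and Lhx2 and Emx2 higher than in untreated knockout cells, with log2 differences of -0.58, -0.96, -0.84 and -0.82 for the first 4 and 1.29 for both Lhx2 and Emx2, all without overlap, as were 51.4% of tested genes. Astrocyte markers summed to 1170 to 1267 TPM in knockout cells in neuronal medium, against 482 to 496 TPM in untreated ones, and their part in the result was not tested. Oleic acid left all 6 members overlapping with untreated knockout cells, where 57% of tested genes were apart. Palmitic acid set 5 members apart, En1 and Foxa2 higher and En2, Irx1 and Lhx2 lower, where 76.5% of tested genes were apart. The log2 difference of Irx1 was only -0.13, and its direction under median-ratio scaling was not tested. These 3 comparisons share the untreated knockout libraries.

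Regional genes other than the members were then tested. Their lists were chosen with earlier results of these data known, so the counts are not independent support for the member levels. Of 76 genes in 5 lists, 33 passed the filter of 1 TPM in at least 3 astrocyte libraries: 12 of 23 forebrain factors, 11 of 20 midbrain and isthmus genes, 3 of 5 other Iroquois genes, 2 of 23 Hox genes and all 5 Zic genes. In untreated cells 30 of the 33 differed between knockout and wild type (limma, adjusted p under 0.05), 14 higher and 16 lower, beside 44.9% of all tested genes (23.9% higher and 21.1% lower). The 9 astrocyte markers were all lower as well, with a median of -1.58, and of the 8 meningeal fibroblast markers 4 were higher and 4 lower. The fibroblast markers summed to 913 to 966 TPM in knockout cells, against 579 to 626 TPM in wild-type cells. The part of these cell types in the result was not tested. The median log2 difference was 0.98 over the midbrain and isthmus genes, 2.30 over the Iroquois genes, 1.31 over the Hox genes, -0.98 over the forebrain factors and -1.54 over the Zic genes, beside 0.05 over all genes. The 2 Hox genes reached 1 TPM in untreated knockout and in no untreated wild-type libraries, so the filter favoured their direction.

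**Figure D2:**
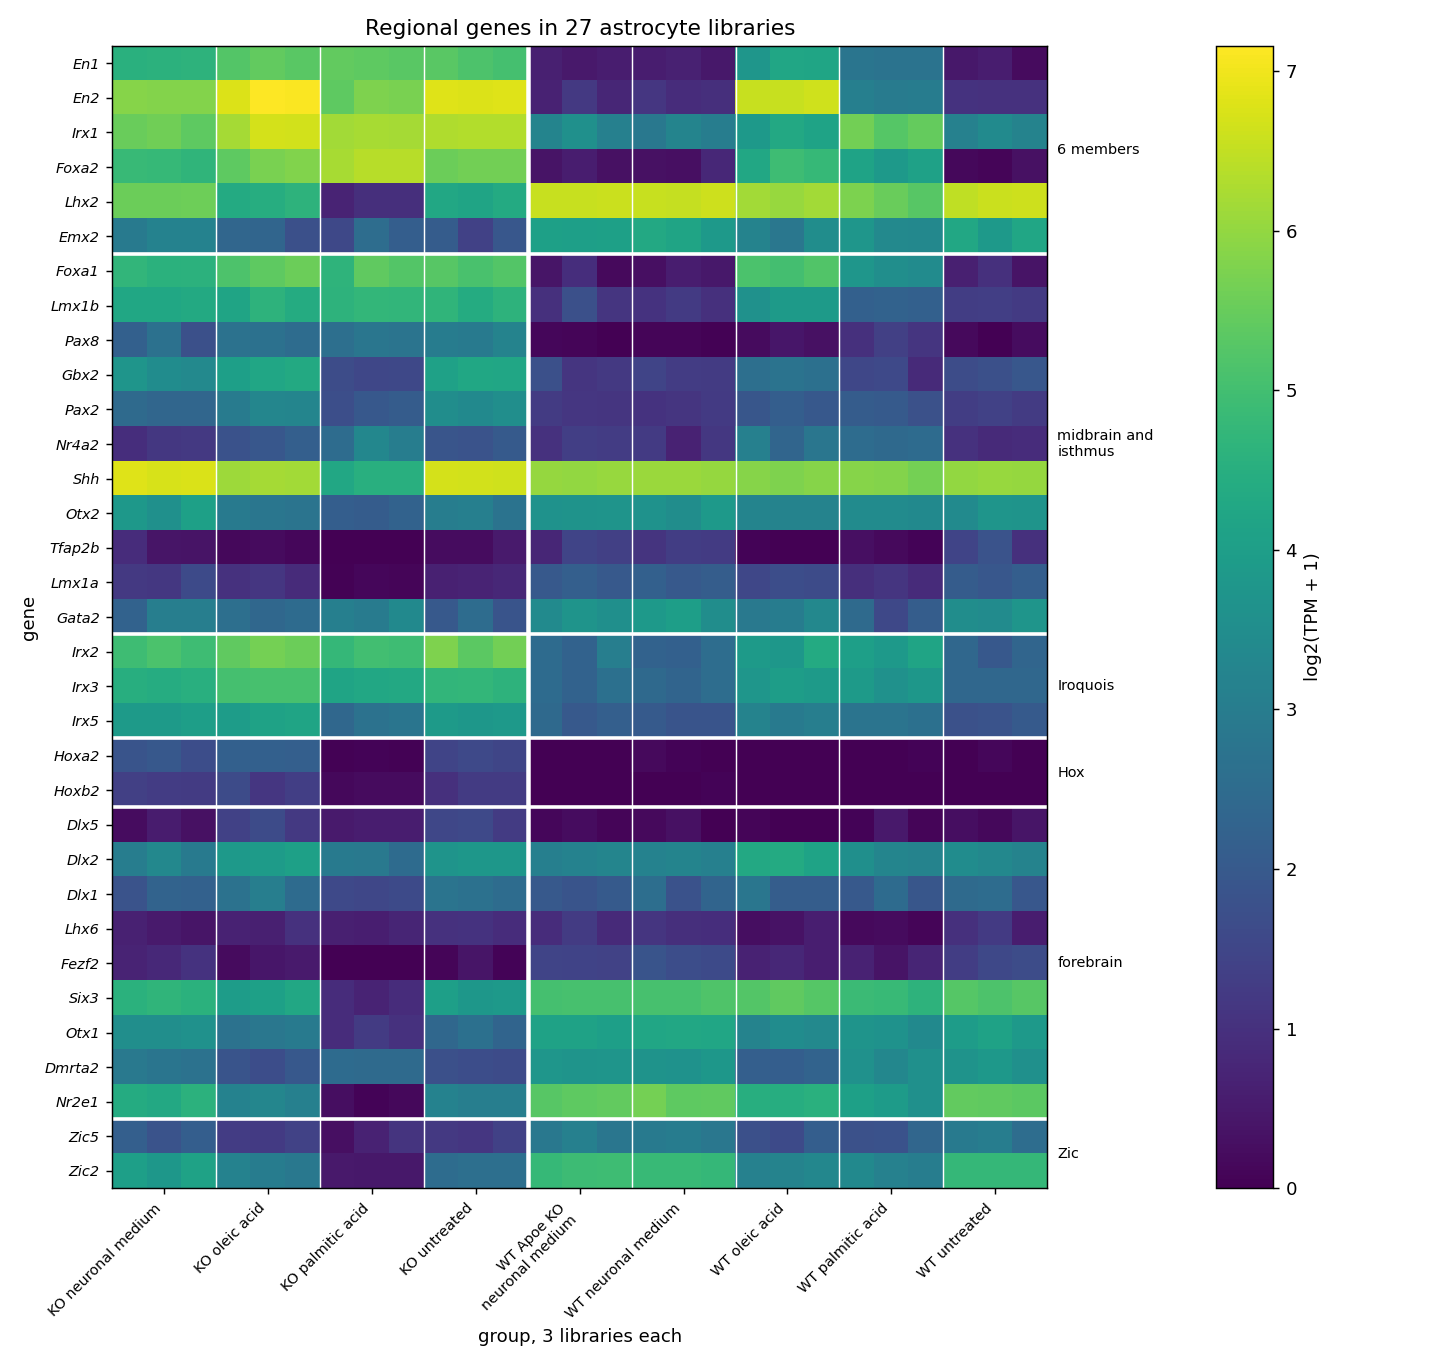
Level as log2(TPM + 1) of the 6 members and 27 of the 33 tested regional genes (rows, by list) in 27 astrocyte libraries (columns, knockout groups left of the thick white line). Foxa1, Lmx1b, Pax8 and the Iroquois genes are brighter in untreated knockout cells than in untreated wild-type cells, and the Zic and most forebrain rows run the other way.

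All 11 tested midbrain and isthmus genes differed in untreated cells, 7 higher and 4 lower in the knockout. Foxa1, the forkhead partner of Foxa2 in the floor plate, was 38.5, 33.6 and 36.7 TPM in untreated knockout libraries, against 0.55, 0.98 and 0.31 TPM in untreated wild-type libraries. Its log2 difference was 4.55 ± 0.19 (SE, limma adjusted p = 1.3e-14). In untreated cells Foxa1 reached the 1 TPM of the filter in knockout libraries only, so the filter favoured its direction here. Lmx1b, a LIM homeobox gene of the isthmus and of midbrain dopamine neurons, followed with 3.29 ± 0.14 (limma adjusted p = 3.6e-14), and the isthmic paired box genes Pax2 and Pax8 with 2.16 ± 0.11 (limma adjusted p = 2.85e-13) and 2.89 ± 0.16 (limma adjusted p = 1.3e-12). Gbx2, which sets the hindbrain side of the isthmus, rose by 2.41 ± 0.17, Nr4a2, a factor of dopamine neurons, by 0.98 ± 0.19, and Shh, the floor plate signal, by 0.65 ± 0.06. The 4 that fell were Gata2 (-1.43 ± 0.23), Lmx1a (-1.34 ± 0.12), Tfap2b (-1.10 ± 0.19) and Otx2 (-0.67 ± 0.11), so the list did not move as a whole. Otx2 marks forebrain and midbrain up to the isthmus, and Lmx1a the roof plate as well as dopamine progenitors.

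The Iroquois genes moved with Irx1. Irx2 was 53.8, 40.1 and 48.3 TPM in untreated knockout libraries, against 4.20, 2.94 and 4.08 TPM in untreated wild-type libraries, with a log2 difference of 3.35 ± 0.17 (limma adjusted p = 6.5e-13). Irx3 and Irx5 differed by 2.30 ± 0.09 (limma adjusted p = 4.3e-15) and 1.97 ± 0.11 (limma adjusted p = 4.1e-12). Irx1 and Irx2, and Irx3 and Irx5, lie in separate Iroquois clusters, and both clusters were higher. Hoxa2 and Hoxb2, which mark the rhombomeres of the hindbrain, were at 1.75, 2 and 1.83 TPM and at 0.99, 1.35 and 1.36 TPM in untreated knockout libraries, against 0.00, 0.09 and 0.00 TPM and 0 in all 3 untreated wild-type libraries. They differed by 1.47 ± 0.09 (limma adjusted p = 5.2e-12) and 1.15 ± 0.10 (limma adjusted p = 4.7e-09). Both reached the 1 TPM of the filter in untreated knockout libraries and in no untreated wild-type one, so the filter itself favoured this direction. This limits the Hox calls in the other treatments below as well. The other 21 Hox genes listed did not pass the filter in the astrocytes.

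Of the 12 forebrain factors, 7 fell and 2 rose in untreated knockout cells. Nr2e1, the tailless orphan receptor of forebrain progenitors, was 8.09, 7.28 and 7.3 TPM in untreated knockout libraries, against 42.7, 41.9 and 40.2 TPM in untreated wild-type libraries, with a log2 difference of -2.32 ± 0.10 (limma adjusted p = 4.7e-14). Dmrta2, of the medial pallium, fell by 1.99 ± 0.09 (limma adjusted p = 9.9e-14), and Six3, of the anterior forebrain, by 1.35 ± 0.09 (limma adjusted p = 3.0e-11). The 2 that rose were Dlx5 (1.18 ± 0.14) and Dlx2 (0.41 ± 0.12), homeobox genes of the ventral forebrain, while Dlx1 (0.34) and Lhx6 (0.06) did not pass the test. All 5 Zic genes, which act in the dorsal midline of the neural tube, fell, Zic2 the most with -2.17 ± 0.09 (limma adjusted p = 3.2e-14). Zic2 was 4.81, 5.07 and 5.13 TPM in untreated knockout cells, against 26.0, 26.1 and 26.1 TPM in untreated wild-type cells.

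In neuronal medium 23 of the 33 regional genes differed between knockout and wild type, 11 higher and 12 lower, beside 21.4% of all genes (12.2% higher and 9.2% lower). Of the 9 astrocyte markers 5 were lower and none higher. Meningeal fibroblast markers summed to 862 to 987 TPM in knockout cells, against 518 to 543 TPM in wild-type cells, and microglia markers to 64.4 to 69.5 TPM, against 116 to 137 TPM. The part of these cell types in the result was not tested. Foxa1 (4.18 ± 0.19, limma adjusted p = 3.2e-13), Lmx1b (3.20 ± 0.14), Pax8 (2.13 ± 0.16) and Gbx2 (2.21 ± 0.17) were again higher, as were all 3 Iroquois genes and both Hox genes. No forebrain factor rose, and 7 fell, among them Nr2e1 (-1.04 ± 0.10), Dmrta2 (-0.90 ± 0.09) and Fezf2 (-0.88 ± 0.13), a gene of deep-layer cortical neurons. Of the Zic genes Zic2 (-0.82 ± 0.09) and Zic5 (-0.87 ± 0.19) fell and the other 3 did not pass. Over all genes 1964 were higher and 1487 lower, and with median-ratio scaling 1264 and 1620, while the regional genes stayed at 11 and 12.

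With oleic acid 22 of the 33 differed, 12 higher and 10 lower in knockout than in wild-type cells, beside 33.3% of all genes (14.7% higher and 18.5% lower). All 8 meningeal fibroblast markers were higher in the knockout, with a median of 0.76, and 6 of 9 astrocyte markers were lower. Microglia markers summed to 301 to 374 TPM in knockout cells, against 224 to 255 TPM in wild-type cells. Their part in the result was not tested. Foxa1 did not pass: it was 35.1, 40.9 and 45.5 TPM in knockout cells with oleic acid, against 34.1, 31.4 and 36.5 TPM in wild-type cells with oleic acid, a log2 difference of 0.24 ± 0.19. Like En2, Foxa1 was thus high in both genotypes there, and Lmx1b differed by only 0.60 ± 0.14. Pax8 (2.31 ± 0.16, limma adjusted p = 3.3e-10), Pax2 (1.17 ± 0.11), Gbx2 (1.55 ± 0.17) and Shh (0.33 ± 0.06) rose, with all 3 Iroquois genes (1.01 to 1.52) and both Hox genes, Hoxa2 by 2.19 ± 0.09 and Hoxb2 by 1.37 ± 0.10. Hoxa2 and Hoxb2 were listed at 0 in all 3 wild-type libraries with oleic acid. Six3 (-1.21 ± 0.09) and Nr2e1 (-1.31 ± 0.10) fell and Dlx5 rose (1.38 ± 0.14). Of the Zic genes only Zic5 (-0.52 ± 0.19, limma adjusted p = 0.036) passed, and it did not pass when all genes were tested (-0.52), when the pseudocount was 0.1 (-0.75), with median-ratio scaling (-0.50) or with only the groups compared. It also did not pass without knockout library 1 (-0.51), knockout library 2 (-0.48) or wild-type library 3 (-0.37).

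With palmitic acid 26 of the 33 differed, 9 higher and 17 lower in knockout than in wild-type cells, beside 66.7% of all genes (18.2% higher and 48.5% lower). The median of all genes was -0.32 in this comparison and -0.01 with median-ratio scaling, under which 14 regional genes were higher and 15 lower, and all genes split as 5399 higher and 5170 lower, against 2941 and 7836. Six3 (-3.92 ± 0.09, limma adjusted p = 1.4e-19), Nr2e1 (-3.70 ± 0.10), Zic2 (-2.71 ± 0.09) and Otx1 (-2.53 ± 0.11), a factor of cortex and midbrain, fell together with Lhx2. Lmx1b (2.47 ± 0.14), Pax8 (1.57 ± 0.16), Foxa1 (1.51 ± 0.19), Irx2 (0.86 ± 0.17) and Irx3 (0.50 ± 0.09) rose. Shh fell (-1.35 ± 0.06), and Pax2, Gbx2, Irx5, Hoxa2 and Hoxb2 did not pass. Hoxa2 and Hoxb2 were at 0.03 to 0.04 TPM and 0.12 to 0.16 TPM in knockout cells with palmitic acid. The astrocyte markers differed as well, with 9 of 9 lower and a median of -2.71. Microglia markers summed to 9.63 to 12.2 TPM in knockout cells, against 221 to 258 TPM in wild-type cells, and meningeal fibroblast markers to 423 to 432 TPM, against 214 to 239 TPM. The part of these cell types in the result was not tested. These are the knockout libraries with the lowest Gfap.

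Treatments were compared within a genotype with an F test over all groups. In wild-type cells 29 of the 33 regional genes differed among the 5 treatments, beside 78.5% of all genes, and the lowest p was that of Foxa1 (limma adjusted p = 1.4e-15). Foxa1 was 34.1, 31.4 and 36.5 TPM with oleic acid and 12.6, 10.6 and 9.93 with palmitic acid, against 0.55, 0.98 and 0.31 TPM untreated. Of these groups only those with a fatty acid reached the 1 TPM of the filter for Foxa1, so the filter favoured this order. Lmx1b had the same order, with 11.2, 13.9 and 14.1 TPM and 3.60, 3.79 and 3.59 TPM, against 1.46, 1.5 and 1.33 TPM. Zic2 went down with both acids, at 7.92, 8.26 and 8.92 TPM with oleic acid and 9.47, 7.84 and 7.11 with palmitic acid, against 26.0, 26.1 and 26.1 TPM untreated (limma adjusted p = 4.7e-14). With only the untreated and conditioned medium groups in the test, 0 of the 33 differed (limma; 3 at an unadjusted p under 0.05) among 194 genes in all, a setting added after seeing the data.

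In knockout cells 32 of the 33 differed among the 4 treatments, beside 85.8% of all genes, and Lmx1b alone did not (limma adjusted p = 0.060). Among regional genes Six3 had the lowest p (limma adjusted p = 3.7e-19), at 22.6, 24.9 and 22.8 TPM in neuronal medium, 14.5, 15.7 and 18.4 with oleic acid and 0.86, 0.64 and 0.89 with palmitic acid, against 15.4, 12.8 and 13.3 TPM untreated. Shh followed (limma adjusted p = 3.9e-19), with 110.02, 105 and 107 TPM in neuronal medium, 68.7, 71.8 and 70.7 with oleic acid and 18.4, 21.7 and 21.9 with palmitic acid, against 103, 100.5 and 99.2 TPM untreated. Without the palmitic acid libraries 28 of the 33 differed among the other 3 treatments, and Irx5 and Hoxb2 no longer passed. With the same libraries left out of the shared fit, also a setting added after seeing the data, 30 regional genes differed untreated, 24 in neuronal medium and 23 with oleic acid.

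The genes most like each member were sought over the 27 astrocyte libraries by Pearson's r on log2(TPM + 1). The libraries fall into the sets described above, so these values mostly restate the group levels, and they are given as a description. En1 was most like Lmx1b (0.98), Ripk4 (0.98) and Foxa2 (0.98), and Foxa2 most like En1, Trbc2 (0.98) and Foxa1 (0.98). En2 was most like Wif1 (0.995), Ntn1 (0.99) and Podxl (0.99), where Wif1 is a secreted Wnt inhibitor and Ntn1 the floor plate guidance cue netrin. Irx1 was most like Socs5, Zfp503 and Fn1, at 0.96 each. Lhx2 was most like Prdm16 (0.995), Gfap (0.99) and Gnao1 (0.99), and Emx2 like the desaturases Fads1 (0.94) and Fads2 (0.94). Without the 3 palmitic acid knockout libraries, a setting added after seeing the data, Lhx2 and Gfap had an r of 0.99, and Lhx2 and Prdm16 0.98. Both Lhx2 and Gfap had their lowest values in knockout cells with palmitic acid.

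In all 25 brain libraries the forebrain members Lhx2 and Emx2 were above En1, En2 and Foxa2. Lhx2 ran from 30.6 to 56.7 TPM (median 40.0) and Emx2 from 6.46 to 16.2 (10.54), while En2 ran from 0.21 to 2.08 (0.907) and En1 from 0 to 1.35, listed at 0 in 10 libraries. Foxa2 was listed at 0 in 21 of the 25 and reached 0.261 TPM. Irx1 was the most variable of those detected throughout, from 0.223 to 11.5 TPM (2.19). Other regional genes were mixed. The cortical gene Fezf2 averaged 26.9 TPM in the first KA cohort, 25.8 with CNO and its controls, and 33.6 in the second cohort. Nr4a2, which midbrain dopamine neurons and some cortical neurons express, was close to it with 25.05, 21.5 and 31.1 TPM, Otx2 averaged 6.33, 6.79 and 6.53 TPM, and the Hox gene with the highest mean reached 0.095, 0.155 and 0.142 TPM on average.

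**Figure D3:**
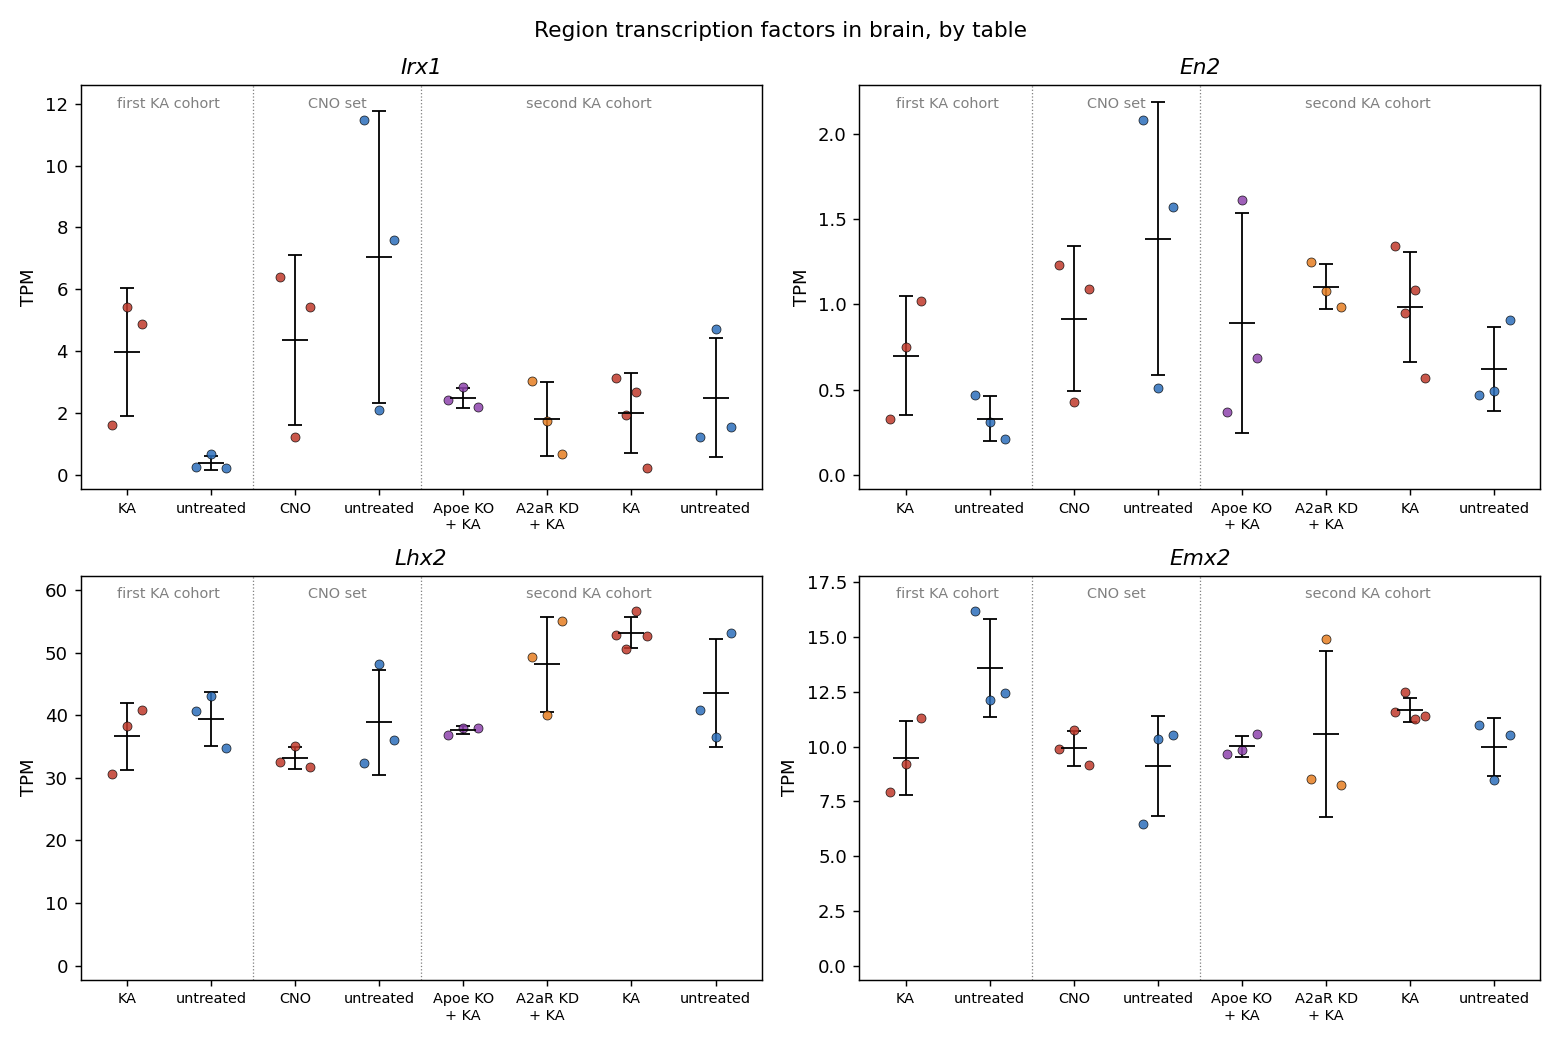
Level in TPM (linear axes from 0) of Irx1, En2, Lhx2 and Emx2 in 25 brain libraries of the 3 tables, with the mean and SD of each group. Relative to its mean, Irx1 differs among libraries more than Lhx2 does, and in the first KA cohort its KA points (1.61 to 5.42 TPM) lie above its untreated points (0.23 to 0.66 TPM).

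In the first KA cohort Irx1 was 1.61, 5.42 and 4.89 TPM in KA brain, against 0.26, 0.66 and 0.23 TPM in untreated brain, a log2(TPM + 1) difference of 1.75. Emx2 was 7.92, 9.23 and 11.3 TPM in KA brain, against 16.2, 12.1 and 12.5 TPM in untreated brain. Both were without overlap, as were 27.3% of 15331 tested genes, and the other 4 members overlapped. Untreated library 3 stood apart in neuron markers (2042 TPM summed, beside 3536 and 3720 in the other untreated libraries) and in genes of other cell types. Slc1a2 of astrocytes was 128 TPM there, beside 383 and 397, and Cdh5 of endothelium 2.19 TPM, beside 7.26 and 7.73. Apoe was higher, at 6195 TPM beside 3746 and 3866, as was C1qa of microglia, at 143 TPM beside 84.7 and 86.5. The cause was not tested. Lhx2 was 30.6, 38.4 and 40.9 TPM in KA brain, against 40.6, 43.1 and 34.7 TPM in untreated brain. En2 was 0.33, 0.75 and 1.02 TPM, against 0.47, 0.31 and 0.21 TPM, and En1 was listed at 0 in 2 libraries of each group. The median of all genes was 0.25 in this comparison and -0.02 with median-ratio scaling.

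None of the 27 regional genes tested passed in the first KA cohort (limma; 10 at an unadjusted p under 0.05), beside 28 of all genes (0.183%). The share of all genes at that unadjusted p is not given, and the median of all genes was 0.25 here. The 10 are therefore a description and not a result about regional genes. On the log2 scale those 10 were Otx2 (2.03), Gata3 (1.81), Tfap2b (1.81), Irx2 (1.68), Sox14 (1.39), Zic1 (1.35), Zic4 (1.31), Zic2 (0.65), Shh (0.59) and Dlx1 (-0.81). Irx2 was 1.63, 3.82 and 3.22 TPM in KA brain, against 0.16, 0.16 and 0.22 TPM in untreated brain. A gene that defines the thalamus, Tcf7l2, did pass, at 21.3, 23.2 and 19.5 TPM in KA brain, against 3.29, 3.34 and 1.98 TPM in untreated brain (2.55 ± 0.23, limma adjusted p = 0.025). The 4 thalamus markers summed to 50.3 to 78.3 TPM in KA brain, against 20.5 to 32.7 TPM in untreated brain, with none at 0. Choroid plexus and ependyma markers summed to 1524 to 2317 TPM in KA brain, against 159 to 1120 TPM in untreated brain, and microglia markers to 461 to 1148 TPM, against 210 to 232 TPM. The part of these cell types in the Irx1, Emx2 and regional gene differences was not tested. Without untreated library 3, 7 regional genes and 352 of all genes passed, 136 without KA library 3 and 1 without untreated library 1, and without KA library 1 or 2, or untreated library 2, 0 of all genes did. Tcf7l2 was therefore not called in those 3 settings.

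In the CNO set all 6 members overlapped, where 21.6% of tested genes did not. Irx1 was 6.39, 1.23 and 5.43 TPM in CNO brain, against 11.5, 2.09 and 7.58 TPM in untreated brain. Replicate 2 was the lowest of both groups, and the same held for Tcf7l2, at 40.9, 4.07 and 21.3 TPM, against 84.6, 9.91 and 35.4 TPM, and for Otx2, at 7.88, 0.82 and 8 TPM, against 10.9, 3.72 and 9.44 TPM. Ttr, the choroid plexus transthyretin gene, was 660, 0.99 and 686 TPM in CNO brain, against 187, 38.9 and 217 TPM in untreated brain. Lhx2 was 32.6, 35.1 and 31.8 TPM in CNO brain, against 32.3, 48.2 and 36.1 TPM in untreated brain, and Emx2 was 9.88, 10.7 and 9.14 TPM, against 6.46, 10.4 and 10.52 TPM. Foxa2 was listed at 0 in all 6 libraries. Set against the untreated library of the same number, Irx1, En2, Tcf7l2 and Otx2 were each lower with CNO in 3 of 3 pairs, En2 at 1.23, 0.43 and 1.09 TPM in CNO brain, against 2.08, 0.51 and 1.57 TPM in untreated brain. Lhx2 was lower in 2 of the 3 pairs, Emx2 higher in 2, and En1 lower in 1 and higher in 1. Tcf7l2 and Otx2 were picked to stand beside the members. How many of all genes were lower in 3 of 3 pairs was not counted, so the pair counts cannot be read as an effect of CNO.

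Of 34 regional genes tested in the CNO set, 1 passed, beside 571 of all genes (3.7%), of which 535 were higher (3.46%) and 36 lower (0.233%). It was Nr2e1, at 10.7, 11.95 and 9.37 TPM in CNO brain, against 5.98, 6.82 and 6.67 TPM in untreated brain (0.64 ± 0.13, limma adjusted p = 0.046). With the replicate number as a block 928 of all genes passed, 764 higher and 164 lower, and 1 regional gene did. Nr2e1 did not pass when any 1 of the 6 libraries was left out, with log2 differences of 0.56 to 0.72, nor when all genes were tested, nor with median-ratio scaling (0.58). Of the 9 astrocyte markers 4 were higher with CNO, and their part in the result was not tested.

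**Figure D4:**
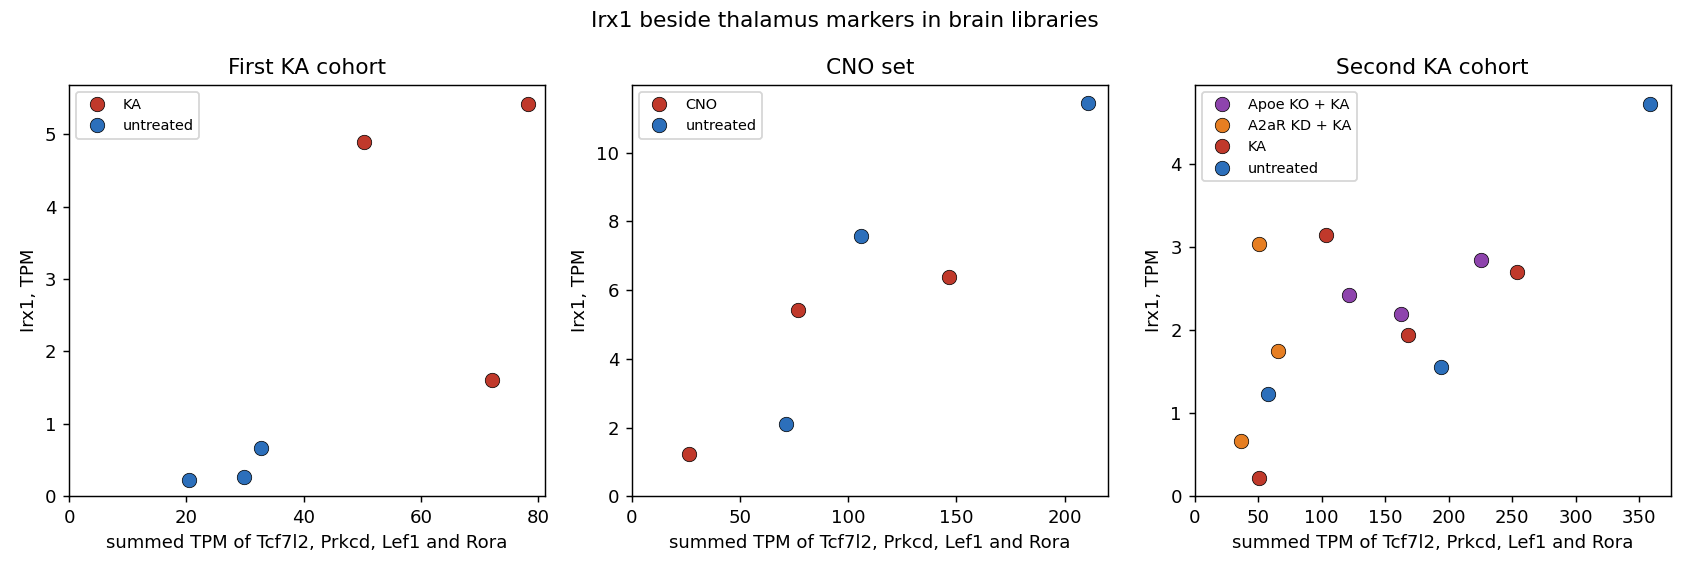
Irx1 in TPM against the summed TPM of 4 thalamus markers (Tcf7l2, Prkcd, Lef1 and Rora), 1 point a library, in 3 panels by table with linear axes. CNO replicate 2, lowest in its panel in the markers at 26.3 TPM, is lowest there in Irx1 at 1.23 TPM, and untreated library 2 of the second cohort is highest in both, at 359 TPM and 4.72 TPM. Other points do not follow this order. In the first cohort KA library 1 has more of the markers than KA library 3 but less Irx1 (1.61 against 4.89 TPM). In the second cohort A2aR knockdown library 6 is lowest in the markers and KA library 4 in Irx1.

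In the second KA cohort, counts gave the members a known depth of 68760648 to 76643829 per library. Lhx2 had 3079 to 4068 counts, Emx2 713 to 1138, Irx1 18 to 383 and En2 44 to 203. Irx1 was 3.14, 1.93, 2.69 and 0.223 TPM in KA brain, against 1.22, 4.72 and 1.56 TPM in untreated brain. KA library 4, lowest in Irx1, was also lowest in Tcf7l2 (4.10 TPM) and Otx2 (0.135 TPM), and untreated library 2, highest in Irx1, had the most of both (60.2 and 10.999 TPM). Otx2 was the gene most like Irx1 over the 13 libraries, with a Pearson's r of 0.914 on log2(TPM + 1), a description over libraries of 4 groups. Ttr of the choroid plexus varied as well, at 2037, 141, 324 and 20.3 TPM in KA brain, against 592, 1905 and 413 TPM in untreated brain. A2aR knockdown library 4 had 7.98 TPM of Otx2 with 39.4 TPM of Ttr. The part of choroid plexus in this likeness was not tested.

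Emx2 was 11.6, 12.5, 11.3 and 11.4 TPM in KA brain, against 10.98, 8.49 and 10.54 TPM in untreated brain, and Lhx2 was 52.9, 50.7, 56.7 and 52.7 TPM, against 40.8, 36.6 and 53.2 TPM. Emx2 was higher without overlap, and Foxa2 was listed at 0 in the 4 KA libraries, against 0.0547, 0.261 and 0.0544 TPM in untreated ones, where 8.06% of genes at 1 TPM or more in 3 libraries did not overlap. Of 44 regional genes tested none passed (edgeR; 2 at an unadjusted p under 0.05, and 0 with DESeq2), beside 13 of all genes (0.0558%). The groups also differed in sex-linked transcripts, looked at after values were seen, with Xist at 0.0255 to 0.272 TPM in KA brain, against 122 to 145 TPM in untreated brain. KA and the sex-linked difference cannot be told apart here.

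In Apoe knockout with KA, Lhx2 was 36.9, 38.0 and 38.1 TPM, against 52.9, 50.7, 56.7 and 52.7 TPM with KA alone, and Emx2 was 9.66, 9.84 and 10.6 TPM, against 11.6, 12.5, 11.3 and 11.4 TPM. Both were lower in TPM without overlap, where 10.6% of genes did not overlap, and the other 4 overlapped. In counts not scaled for depth both overlapped, Lhx2 at 3179 to 3466 against 3336 to 4068. Emx2 had 935 to 1082 counts, against 1046 to 1138. In counts scaled by edgeR the differences were -0.22 for Lhx2 and -0.20 for Emx2, beside -0.49 and -0.20 on the log2(TPM + 1) scale, so the size for Lhx2 depended on the scale. En2 was 0.371, 1.62 and 0.688 TPM in Apoe knockout with KA, against 1.34, 0.950, 1.09 and 0.566 TPM, and Irx1 2.43, 2.84 and 2.19 TPM, against 3.14, 1.93, 2.69 and 0.223 TPM. En2 was 40.3 to 142 TPM in knockout astrocyte cultures, a table normalized separately from this one. None of 44 regional genes passed (edgeR; 1 at an unadjusted p under 0.05, and 0 with DESeq2), beside 26 of all genes (0.112%).

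In A2aR knockdown with KA all 6 members overlapped with KA alone, where 9.63% of genes did not. Lhx2 was 49.3, 40.0 and 55.2 TPM in knockdown brain, Emx2 8.53, 14.9 and 8.26 TPM, Irx1 3.03, 1.74 and 0.660 TPM and En2 1.25, 1.08 and 0.988 TPM, against the KA values above. Library 5 had the highest Emx2 and the lowest Lhx2 of the 3. None of 44 regional genes passed (edgeR; 6 at an unadjusted p under 0.05, and 1 with DESeq2), beside 9 of all genes (0.0386%). All 3 comparisons of the second cohort share the 4 KA libraries.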

How the data were processed

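RNA was sequenced from 27 astrocyte and 25 brain libraries. Per the labels' protocols, an Illumina TruSeq kit was used on 1 ug of RNA. The submitters' processing notes name HISAT2, StringTie, RSEM and mm10, with no roles. The authors deposited TPM per gene for all libraries, and whole-number counts per gene for the second KA cohort. Each table was analysed on its own, since tables were processed separately. The 6 members and all gene lists were chosen with earlier results of these data known.

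TPM was tested with limma 3.58.1 (R 4.3.3) on log2(TPM + 1) for genes that reached 1 TPM in 3 or more libraries. For counts, the quasi-likelihood test of edgeR 4.0.16 was used after TMM normalization, with DESeq2 1.42.0 as an alternative. Each table was fitted with all its groups, and p-values were adjusted over all tested genes by the Benjamini-Hochberg method at 0.05. Counts of regional genes at an unadjusted p under 0.05 are given without the share of all genes and are a description only. The steps were tested on simulated data. Depth was 68760648 to 76643829 counts per library in the second cohort and is unknown elsewhere.

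Genes named beside the members are, of each regional list, up to 4 called genes with the smallest p in a comparison and the 3 most abundant in a table, then the 3 most like each member over 27 astrocyte or 13 brain libraries, and Apoe. Other genes are named after their values were seen. A few genes that this rule names are not reported here, though they stay in the tests and counts. In the CNO set the replicate numbers may pair the libraries. Deviations from the group means correlated at 0.119 to 0.244 between like-numbered libraries, and each of the 3 matched its own number best. The labels name no shared animal or day, and the main CNO calls come from the fit without pairs. Alternatives were a pseudocount of 0.1, no filter, other scaling, DESeq2, only the groups compared, the replicate block and leaving out each library.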

Additional observations from a re-analysis of the deposited data

Results flagged for a closer look

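Members moved in opposite directions in paired settings on the log2(TPM + 1) scale, with every library of the groups on its side. The differences between the settings were not tested. En2 with palmitic acid differed from untreated by -1.18 in Apoe knockout astrocytes and by 2.005 in wild-type astrocytes. Irx1 with palmitic acid differed from untreated by -0.13 in knockout astrocytes and by 2.19 in wild-type astrocytes. The median of all genes between knockout and wild type with palmitic acid was -0.32, and -0.01 with median-ratio scaling. The Irx1 difference between the genotypes there ran from 0.64 to 1.18 under the alternatives. Whether the small Irx1 difference of -0.13 keeps its direction under that scaling was not tested. Emx2 in KA brain differed from untreated by -0.48 in the first cohort and by 0.21 in the second.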

How the results depend on the processing

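In astrocytes the total counts of regional genes called kept within 1.5 times of the reported ones under every setting run, except among wild-type treatments with only untreated and conditioned medium groups (0 regional and 194 of all genes). With palmitic acid the regional genes higher in knockout cells numbered 9, and 14 with median-ratio scaling. With only the groups compared, 3568 genes passed for oleic acid, against 5378. Of 489 member values under the alternatives, 26 moved by more than the spread between libraries. Of 1351 values of named regional genes, 32 fell short of the threshold and 0 turned round. These genes were named for small p, and F test values carry no direction, so turning round was unlikely. In the second cohort member differences changed sign for Irx1 with KA (3 of 12 settings) and for En2 (3 of 12) and Irx1 (2 of 12) with Apoe knockout. Irx1 and Lhx2 changed sign for A2aR knockdown (2 of 11 each), Lhx2 in the first cohort and Emx2 with CNO (1 of 10 each). No genotype difference of a member in astrocytes did. Leaving out 1 library gave 6417 to 6628 genes untreated (29 to 30 regional), 2675 to 3010 in neuronal medium (21 to 23), 4497 to 4885 with oleic acid (21 to 23) and 9814 to 10836 with palmitic acid (23 to 25).

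Brain counts were less steady, and the causes were not tested. In the first KA cohort (28 genes), 44 passed with a pseudocount of 0.1 (1 regional), 2 without a filter, 2 with the replicate block and 0 to 352 leaving out 1 library (0 to 7 regional). In CNO (571), 197 passed without a filter (0 regional), 928 with the replicate block, and 167 to 591 leaving out 1 library (0 regional; 170 and 167 without CNO 2 and 3, and 340, 317 and 215 without untreated 1, 2 and 3), and median-ratio scaling left 0 regional genes. DESeq2 called 137 genes for KA in the second cohort (13 with edgeR), 272 for Apoe knockout (26) and 238 for A2aR knockdown (9, with 1 regional gene under DESeq2). With only the groups compared, 11 and 1 passed for Apoe knockout and A2aR knockdown, and with the replicate block 5 for Apoe knockout. Leaving out 1 library gave 9 to 20 for KA (20 without untreated 1), 15 to 27 for Apoe knockout (16, 15 and 15 without knockout 1, 2 and 3) and 0 to 12 for A2aR knockdown (0 without knockdown 5, 5 without KA 1 or 3). Outside CNO the replicate numbers gave no sign of pairing (correlations of -0.0814 to 0.0718), and the block moved no other count by over 1.5 times. For A2aR knockdown no paired analysis was possible, because its libraries and the KA libraries share only 1 number.

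The first KA cohort split as 24 higher and 8 lower with median-ratio scaling, against 24 and 4. Depth is unknown for the TPM tables, so values of 0 there give no limit.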
